A study of Mus musculus with 7 samples.

Results

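The genes described here are 7 genes of the podocyte, Nphs1, Synpo, Wt1, Podxl, Ptpro, Plce1 and Kirrel, chosen by symbol in the renal RNA-seq table and not by their values. All 7 are among the 17537 genes listed, and all 7 are among the 13976 genes tested, which had 1 CPM (read count scaled to the size of the library) or more in 2 or more libraries. The podocyte is the epithelial cell that covers the outside of the glomerular capillary. Its interdigitating foot processes are bridged by the slit diaphragm, a junction built from nephrin and its relatives, and are held in shape by an actin skeleton. Damage to this cell lets albumin pass into the urine, and in diabetic kidney disease podocyte injury is a recognised source of albuminuria.

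The study asked which renal genes stay altered in diabetic mice after blood glucose is lowered. Non-diabetic controls (C, n = 3, replicates 2, 8 and 9) were set against diabetic mice kept hyperglycemic for 22 weeks (DM-22, n = 2) and diabetic mice that received dapagliflozin, an inhibitor of the glucose transporter SGLT2 (DM+SGLT2i, n = 2). All 7 mice were wild-type C57BL/6, 8 to 10 weeks old at the start, and male according to the labels. Diabetes was induced with streptozotocin (STZ), a toxin of the insulin-producing beta cell, at 60 mg/kg intraperitoneally on 5 consecutive days, and the controls received citrate buffer. DM+SGLT2i mice drank the drug, which blocks glucose reabsorption in the proximal tubule, at 25 mg/kg for 6 weeks from week 16, so they too had been hyperglycemic before. Each library came from renal tissue of a single mouse, in which podocytes are a small minority of cells, and fewer podocytes and less RNA per podocyte cannot be told apart in such bulk tissue.

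The libraries held between 46456125 and 56541594 reads on the listed genes, and 1 read was worth 0.0180 to 0.0231 CPM. The 7 genes had between 270 and 17061 reads in a library, so counting error was small against the differences between mice. C replicate 2 stood apart from C replicates 8 and 9. Cdkn1a, the p53 target that encodes the cell cycle inhibitor p21, stood at 72.7 CPM in it against 4.63 and 5.36 CPM in C replicates 8 and 9 and 52.6 to 123 CPM in the 4 diabetic libraries. Phlda3, another p53 target, stood at 31.6 CPM in it, 5.18 and 4.81 CPM in the other controls and 24.2 to 27.0 CPM in the diabetic libraries. For these genes the library labelled C replicate 2 thus goes against its label, which was kept, and whether the label is right was not tested. It enters every mean over the 3 controls, so each group comparison is also given without it.

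Compared per kilobase of exon, the level order over the 7 libraries was Podxl, Synpo, Nphs1, Ptpro, Kirrel, Wt1 and Plce1. Podxl averaged 53.2 CPM per kb and ranged from 34.4 to 70.0, above every value of any other gene of the group. Synpo averaged 9.71 CPM per kb (6.17 to 14.5), and its range touched that of Nphs1, which averaged 4.41 (1.82 to 6.37). Ptpro averaged 3.16 CPM per kb (1.33 to 4.29), Kirrel 2.33 (1.32 to 3.21) and Wt1 1.87 (0.784 to 2.53). These 3 overlapped each other and Nphs1, so neighbours in this order differed by less than the spread between mice. Plce1 was lowest, with 0.695 CPM per kb (0.502 to 0.932), and its range overlapped that of Wt1 only.

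Nphs1 encodes nephrin, the adhesion molecule whose extracellular part spans the slit diaphragm (chromosome 7, 30458315 to 30487223, plus strand, GRCm38). Its level was 22.04, 35.2 and 28.4 CPM in C replicates 2, 8 and 9, 12.0 and 42.2 CPM in DM-22 replicates 1 and 2, and 35.7 and 28.9 CPM in DM+SGLT2i replicates 1 and 2. The lowest and the highest of the 7 values were thus the 2 mice of the untreated diabetic group, and the controls lay between them. The group means were 28.5 ± 6.59 CPM in C (SD, n = 3), 27.1 ± 21.3 CPM in DM-22 (SD, n = 2) and 32.3 ± 4.78 CPM in DM+SGLT2i (SD, n = 2). Exons of Nphs1 share 597 bases with the antisense gene Nphs1os and 183 bases with the pseudogene Rps12-ps4, both on the opposite strand and neither listed in the table. The library kit keeps strand, but whether counting used it is not given in the sources used here.

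Kirrel encodes Neph1, the binding partner of nephrin in the slit diaphragm (chromosome 3, 87078593 to 87174747, minus strand). It stood at 22.03, 13.4 and 18.9 CPM in the controls, 11.8 and 9.87 CPM in DM-22, and 23.97 and 21.5 CPM in DM+SGLT2i. In contrast to Nphs1, both DM-22 mice were below all other libraries, and they differed little from each other. The DM+SGLT2i values did not overlap those of DM-22, but C replicate 2 lay within the DM+SGLT2i range. Group means were 18.1 ± 4.39 CPM in C (SD, n = 3), 10.9 ± 1.39 CPM in DM-22 (SD, n = 2) and 22.7 ± 1.74 CPM in DM+SGLT2i (SD, n = 2).

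Podxl encodes podocalyxin, the negatively charged sialomucin of the apical foot process surface, which endothelial cells also make (chromosome 6, 31519488 to 31563981, minus strand). It measured 313, 280 and 260 CPM in the controls, 189 and 384 CPM in DM-22, and 320 and 299 CPM in DM+SGLT2i. Again DM-22 replicate 1 was the lowest and DM-22 replicate 2 the highest library, and the group means of 284 ± 26.6 CPM in C (SD, n = 3), 287 ± 138 CPM in DM-22 (SD, n = 2) and 309 ± 14.5 CPM in DM+SGLT2i (SD, n = 2) were close. Ptpro encodes a receptor-type tyrosine phosphatase of the same apical membrane, also called GLEPP1 (chromosome 6, 137252319 to 137463233, plus strand). It measured 25.6, 20.7 and 19.7 CPM in the controls, 8.91 and 28.9 CPM in DM-22, and 24.01 and 20.8 CPM in DM+SGLT2i, with the same libraries at both ends. Group means of Ptpro were 21.97 ± 3.16 CPM in C (SD, n = 3), 18.9 ± 14.1 CPM in DM-22 (SD, n = 2) and 22.4 ± 2.26 CPM in DM+SGLT2i (SD, n = 2).

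The promoters of these genes were searched for the motifs of podocyte transcription factors, and whether such motifs relate to the levels was not tested. RefSeq windows from 250 bases before to 50 bases after the gene start (GRCm38.p6) were matched for 4 of the 7 genes, Nphs1, Ptpro, Plce1 and Kirrel. The E-box CANNTG, the motif of basic helix-loop-helix factors such as TCF21, was present in 2 of the 4 windows (Plce1 and Ptpro) and in 72.3% of all 32851 windows. None of the 4 held GCGTGGG (WT1 and EGR type, 5.04% of all windows), TAATTA (homeodomain type, LMX1B, 5.29%), TGCTGAC (MAF type, 4.67%) or GTAAACA (forkhead type, 3.65%), each searched on both strands. The 250 bases upstream of Ptpro (chr6:137252049-137252298, plus strand, GRCm38.p6) are shown as the member window with an E-box that holds no transcribed base, with its 3 E-box matches in capitals.
Ptpro: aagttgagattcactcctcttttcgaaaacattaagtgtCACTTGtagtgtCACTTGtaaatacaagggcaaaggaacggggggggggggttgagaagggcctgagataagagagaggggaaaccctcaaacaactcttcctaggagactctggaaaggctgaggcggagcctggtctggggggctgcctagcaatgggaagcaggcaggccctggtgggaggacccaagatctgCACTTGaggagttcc
A match describes letters only, and no binding was measured in these mice.

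Wt1 encodes the zinc finger transcription factor that podocytes keep expressing in the adult kidney (chromosome 2, 105126529 to 105173616, plus strand). It was 9.82, 11.5 and 11.5 CPM in C replicates 2, 8 and 9, 4.86 and 15.7 CPM in DM-22, and 15.4 and 12.5 CPM in DM+SGLT2i. The controls were close together here, DM-22 replicates 1 and 2 were the lowest and highest library, and both DM+SGLT2i values were above all controls. Group means were 11.0 ± 0.979 CPM in C (SD, n = 3), 10.3 ± 7.63 CPM in DM-22 (SD, n = 2) and 13.96 ± 2.09 CPM in DM+SGLT2i (SD, n = 2).

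Synpo encodes synaptopodin, an actin-associated protein of the foot process (chromosome 18, 60593973 to 60660142, minus strand). Its levels were 107, 71.5 and 66.9 CPM in the controls, 58.9 and 138 CPM in DM-22, and 104 and 101 CPM in DM+SGLT2i. Both SGLT2i-treated mice were above C replicates 8 and 9 but below C replicate 2, and the DM-22 mice were again at both ends. Group means of Synpo were 81.9 ± 22.1 CPM in C (SD, n = 3), 98.4 ± 56.0 CPM in DM-22 (SD, n = 2) and 103 ± 1.92 CPM in DM+SGLT2i (SD, n = 2). Plce1 encodes phospholipase C epsilon, a signalling enzyme whose loss causes early-onset nephrotic syndrome in children (chromosome 19, 38481109 to 38785030, plus strand). It measured 12.7, 10.5 and 8.03 CPM in the controls, 8.39 and 12.2 CPM in DM-22, and 14.9 and 11.0 CPM in DM+SGLT2i. For Plce1 the 3 groups overlapped, and neither DM-22 mouse was at an end of the order. Its group means were 10.4 ± 2.35 CPM in C (SD, n = 3), 10.3 ± 2.72 CPM in DM-22 (SD, n = 2) and 12.97 ± 2.75 CPM in DM+SGLT2i (SD, n = 2).

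**Figure D1:**
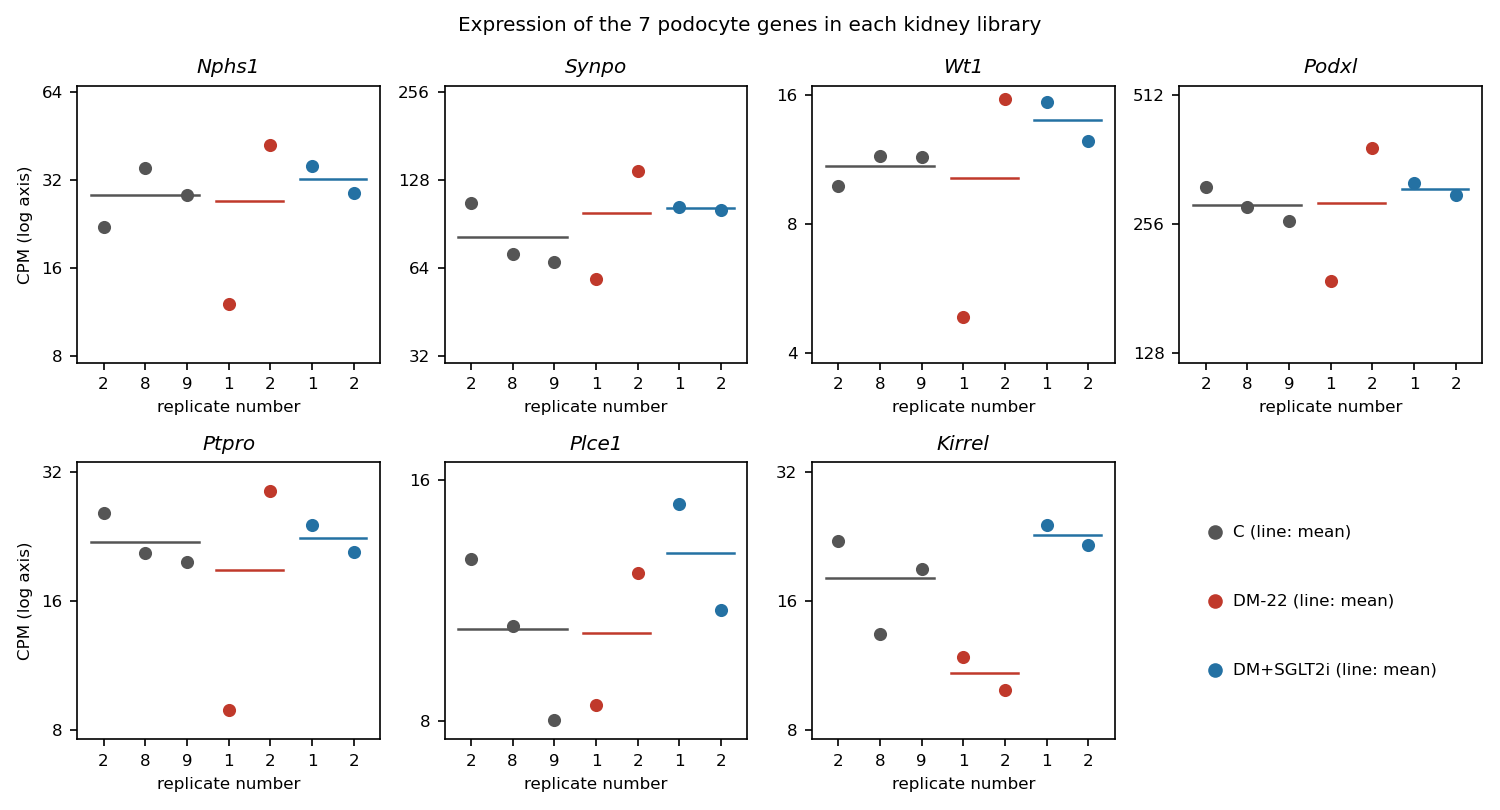
Each panel shows 1 gene, with the replicate number of the library on the x axis and CPM on a log axis, points for single mice and a line for the group mean. In 5 panels DM-22 replicate 1 is the lowest point and DM-22 replicate 2 the highest, whereas in the Kirrel panel both DM-22 points, 11.8 and 9.87 CPM, lie below all others.

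For most of these genes the largest contrast was between the 2 untreated diabetic mice. For 5 of the 7 genes (Nphs1, Synpo, Wt1, Podxl and Ptpro) DM-22 replicate 1 was the lowest and DM-22 replicate 2 the highest of the 7 libraries, which was the case for 516 of the 13976 genes tested (3.69%). On the log2 scale, replicate 2 exceeded replicate 1 by 1.77 for Nphs1, 1.64 for Ptpro, 1.59 for Wt1, 1.22 for Synpo, 1.02 for Podxl and 0.52 for Plce1. Kirrel had the opposite sign, with a difference of -0.25. The median absolute difference was 1.22 for the 7 genes and 0.27 for all genes tested. Between the 2 DM+SGLT2i mice the same medians were 0.20 and 0.20, and between C replicates 8 and 9 they were 0.11 and 0.11, so within those pairs the podocyte genes were close to the typical gene.

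Among the 40 other podocyte genes tested from a list of 43 genes, 7 (17.5%) had DM-22 replicate 1 lowest and DM-22 replicate 2 highest, and their median log2 difference was 0.33 against 0.02 for all genes tested. The genes of the glomerular basement membrane list did not share the spread in this bulk tissue, where the cells that made their RNA were not told apart. None of the 10 genes of that list had these libraries at both ends, and their median difference was -0.22.

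Markers of other kidney cells moved with this contrast. The 8 proximal tubule markers, which include the SGLT2 gene Slc5a2, summed to 8376 CPM in DM-22 replicate 1 and 17189 CPM in replicate 2. The 8 thick ascending limb markers, which include the uromodulin gene Umod, summed to 16742 and 5266 CPM in the same libraries. The 8 glomerular endothelial markers, by comparison, summed to 516 and 473 CPM, and the 8 mesangial markers to 172 and 156 CPM. The median log2 difference of replicate 2 from replicate 1 was 1.62 for the proximal tubule, -1.27 for the thick ascending limb, -0.18 for the glomerular endothelium and 0.09 for the mesangial list, against 1.22 for the 7 podocyte genes. The widest gap was in the 8 papilla and urothelium markers, which summed to 386 CPM in DM-22 replicate 1 and 48.2 CPM in replicate 2 (median difference -2.12 over the 7 tested, with 1 marker at 0 in replicate 2). The 6 parietal epithelium markers summed to 298 and 122 CPM, the 8 leukocyte markers to 221 and 102 CPM and the 8 collecting duct markers to 1240 and 826 CPM. No marker of the other 7 lists was at 0 in any library, and the part of tissue composition in the podocyte values was not tested.

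C replicate 2 gives a separate view of the same lists. Its proximal tubule markers summed to 7850 CPM, lower than in DM-22 replicate 1, against 17482 and 15204 CPM in C replicates 8 and 9. The 7 podocyte genes, however, summed to 512 CPM in C replicate 2, against 443 and 413 CPM in the other controls and 294 and 631 CPM in DM-22 replicates 1 and 2. Low proximal tubule markers thus came with a low sum of the podocyte genes in DM-22 replicate 1 and not in C replicate 2. Podxl alone held 313 CPM of the sum in C replicate 2. Nphs1 (22.04 CPM) and Wt1 (9.82 CPM) were lower in C replicate 2 than in C replicates 8 and 9. Synpo, Podxl, Ptpro, Plce1 and Kirrel were higher in it than in both other controls. In DM+SGLT2i, where the 7 genes summed to 538 and 495 CPM, the proximal tubule markers were 12176 and 12031 CPM.

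**Figure D2:**
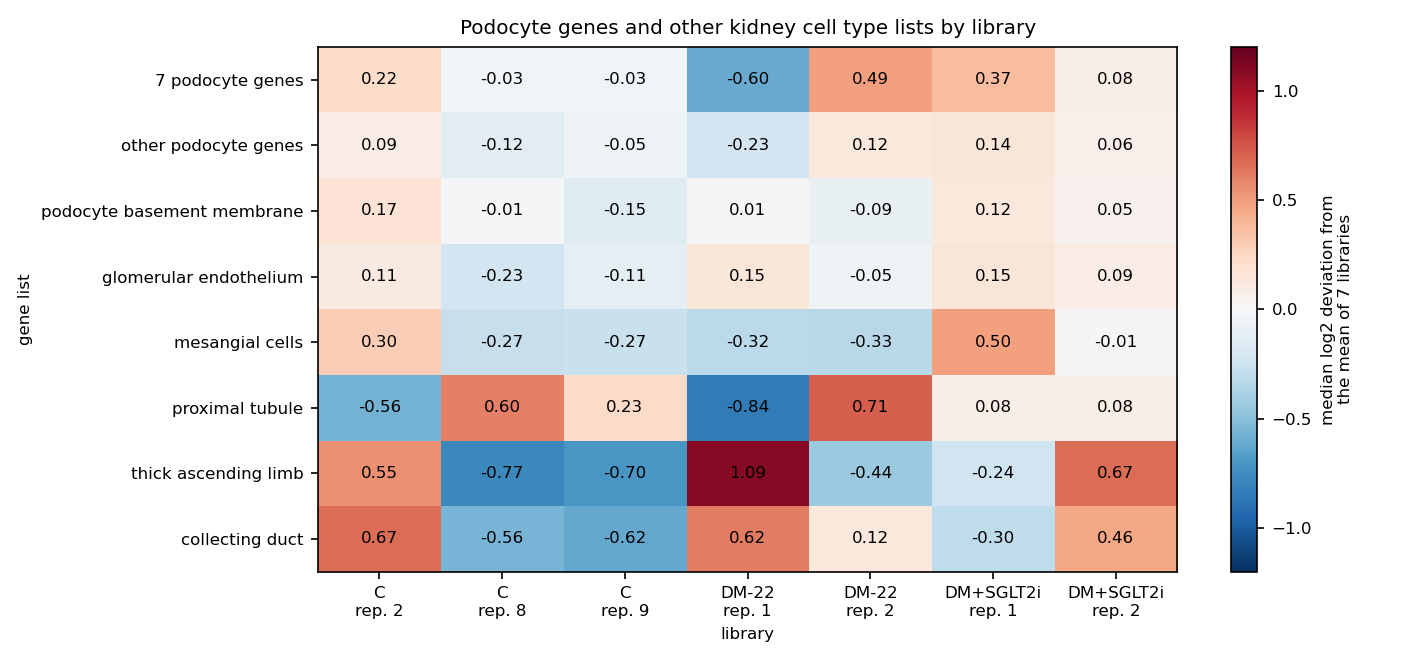
The colour and number in each cell give the median log2 deviation of a gene list (y axis) in a library (x axis) from the mean of the 7 libraries. The row of the 7 podocyte genes runs from -0.60 in DM-22 replicate 1 to 0.49 in DM-22 replicate 2, while the glomerular endothelium row stays between -0.23 and 0.15.

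DM-22 was compared with C to ask what persistent hyperglycemia changed. None of the 7 genes passed an adjusted p of 0.05 in limma, and nor did any other gene (0 of 13976, 0% called, smallest adjusted p 0.804). limma with voom weights on the recovered reads also called 0 genes here and in the comparisons that follow. Kirrel was the member with the clearest difference, with a log2 fold change of -0.69 (SE 0.23, 95% interval -1.24 to -0.13, unadjusted p 0.0223, adjusted p 0.804). It was 1 of the 7 genes under an unadjusted p of 0.05, against 625 genes or 4.47% of all tested, and the only member whose DM-22 and C values did not overlap, as 20.1% of all genes did not. The others were -0.43 for Ptpro (SE 0.44), -0.30 for Nphs1 (SE 0.49), -0.30 for Wt1 (SE 0.43), -0.07 for Podxl (SE 0.30), -0.02 for Plce1 (SE 0.27) and 0.17 for Synpo (SE 0.37). The interval for Nphs1, -1.49 to 0.88, spans a decrease by more than 1 log2 unit as well as an increase, so nephrin is not narrowly bounded in either direction. The median of the 7 genes was -0.30, against 0.00 for all genes.

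That median depended on which diabetic mouse was counted. Without DM-22 replicate 1 it was 0.44, with 6 genes above C and 1 below, and without DM-22 replicate 2 it was -0.59, with all 7 below. Kirrel was the gene below C either way (-0.89 to -0.54 over all alternatives). Without C replicate 2, Kirrel was at -0.54 (SE 0.20, unadjusted p 0.0404, adjusted p 0.179), Podxl at -0.0028 and Plce1 at 0.13. In that fit 2 of 13841 genes (0.0144%) were called and 25.4% had an unadjusted p under 0.05, but no podocyte gene was called and 1 of 7 had an unadjusted p under 0.05.

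DM+SGLT2i was compared with C to ask what remained different after glucose was lowered. All 7 genes had a higher mean in DM+SGLT2i, as did 6602 of the 13976 genes tested and 28 of the 40 other podocyte genes. The median log2 fold change of the 7 was 0.31 against -0.01 for all genes. No gene passed the test (0% called, smallest adjusted p 0.9997). Synpo was at 0.36 (SE 0.37), Kirrel at 0.35 (SE 0.23), Wt1 at 0.33 (SE 0.43) and Plce1 at 0.31 (SE 0.27). Nphs1 was at 0.19 (SE 0.49), Podxl at 0.12 (SE 0.30) and Ptpro at 0.03 (SE 0.44). Each difference was smaller than 2 standard errors, and 0 of the 7 genes had an unadjusted p under 0.05, as 1.08% of all genes did. Wt1 was the only one of the 7 whose values did not overlap between these groups, as was the case for 12.3% of all genes. Without C replicate 2 the median was 0.26, 0 of 7 genes had an unadjusted p under 0.05 where 17.9% of all genes did, and none was among the 17 genes called (0.123%).

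DM+SGLT2i and DM-22 shared their diabetes and differed in the inhibitor. All 7 genes had a higher mean with the inhibitor, as did 7068 of the 13976 genes tested and 31 of the 40 other podocyte genes. Most of the 7 varied together over the same mice, so they are not 7 separate observations. Their median log2 fold change was 0.46 against 0.00 for all genes, and none passed the test (0% called, smallest adjusted p 0.881). Kirrel differed by 1.04 (SE 0.25, 95% interval 0.43 to 1.64, unadjusted p 0.0053, adjusted p 0.881), and its values did not overlap between the groups, as was the case for 41.5% of all genes. The summed CPM of the 8 mesangial markers also did not overlap between these groups. It was 172 and 156 CPM in DM-22 and 302 and 226 CPM in DM+SGLT2i (168 to 240 CPM in C). Nor did the sum of the basement membrane list (1400 to 1553 CPM in DM-22, 1575 to 1594 CPM in DM+SGLT2i). The same held for the transcription factors of the other podocyte list (135 to 139 against 145 to 152 CPM). It also held for 4 RNAs that stay in the nucleus (59.2 to 71.2 against 92.9 to 211 CPM). The sums of the remaining lists overlapped, and the part of any list in the Kirrel difference was not tested. Kirrel was again 1 of 7 genes with an unadjusted p under 0.05, against 3.91% of all genes. Wt1 was at 0.63 (SE 0.48), Nphs1 at 0.50 (SE 0.54), Ptpro at 0.46 (SE 0.49), Plce1 at 0.32 (SE 0.29), Podxl at 0.20 (SE 0.33) and Synpo at 0.19 (SE 0.41). For these 6 the direction rested on DM-22 replicate 1 except for Plce1. Without that library the median of the 7 genes was -0.31 and 5 of them were lower with the inhibitor, and without DM-22 replicate 2 it was 0.91. Kirrel stayed between 0.91 and 1.16 over all alternatives, and without C replicate 2 its unadjusted p was 0.0025 and its adjusted p 0.448, in a fit that called 0% of genes and gave 10.7% an unadjusted p under 0.05.

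With both diabetic groups averaged against C, the median of the 7 genes was 0.02 and 4 genes were higher and 3 lower. None was called (0% of all genes, smallest adjusted p 0.988), and none had an unadjusted p under 0.05, as 2.04% of all genes did. Without C replicate 2, 28 genes (0.202%) were called and 25% had an unadjusted p under 0.05, with 0 of the 7 podocyte genes in either count. These 3 comparisons with C share their control mice, and both comparisons with DM-22 share those 2 mice.

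**Figure D3:**
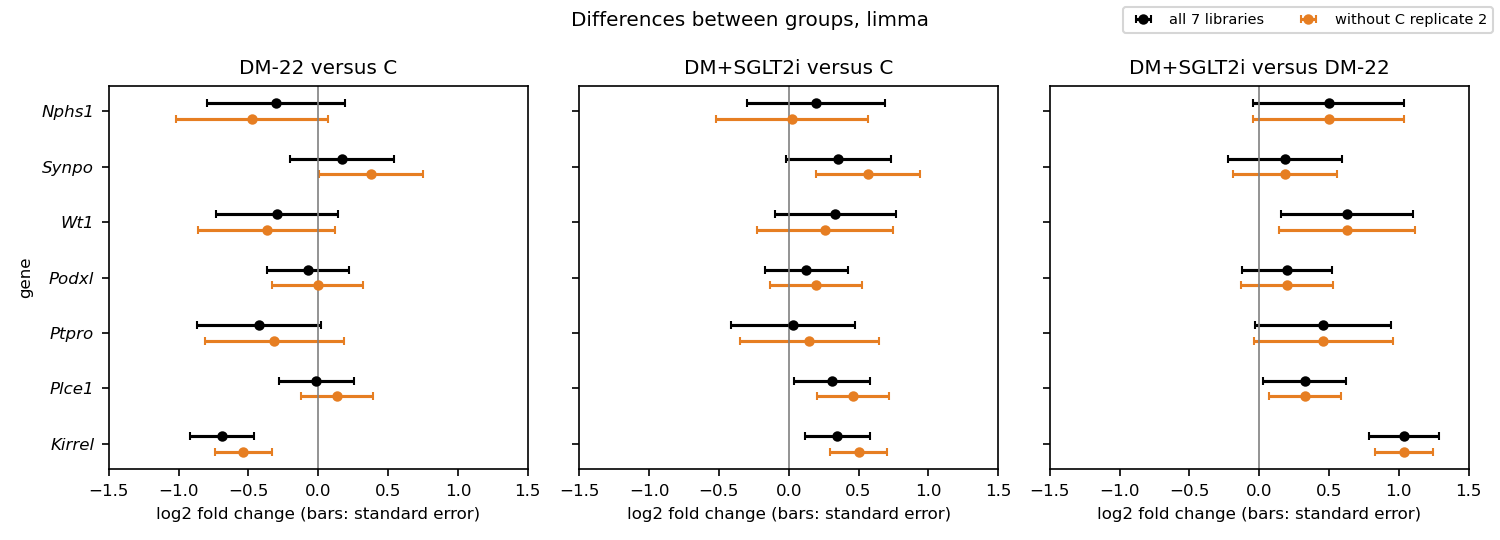
Points give the log2 fold change of each gene (y axis) in 3 comparisons, with bars for the standard error, in black for all 7 libraries and in orange without C replicate 2. Kirrel lies at -0.69 in DM-22 versus C and at 1.04 in DM+SGLT2i versus DM-22, and the bars of Nphs1 reach from one side of 0 to the other in all 3 panels.

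The other podocyte genes, a list of 43 of which 42 were listed and 40 tested, gave 0 called genes in each comparison as well. Their median log2 fold change was -0.04 in DM-22 versus C, 0.16 in DM+SGLT2i versus C and 0.15 in DM+SGLT2i versus DM-22. In DM-22 versus C, 1 gene was higher and 2 were lower at an unadjusted p under 0.05, or 3 of 40 where 4.47% of all genes were. These were Myo1e, a motor protein of the foot process, at 0.48 (SE 0.17, adjusted p 0.804), Ddn, dendrin of the slit diaphragm complex, at -0.92 (SE 0.38, adjusted p 0.804), and Angptl2, a secreted angiopoietin-like protein, at -0.81 (SE 0.23, adjusted p 0.804). In DM+SGLT2i versus DM-22, Angptl2 was at 0.77 (SE 0.25) and Pla2r1, the phospholipase A2 receptor of the podocyte surface, at 0.78 (SE 0.27), while Slc9a3r2, an ezrin-binding scaffold, was at -0.37 (SE 0.15), each with an adjusted p of 0.881, and these were 3 of 40 under an unadjusted p of 0.05 where 3.91% of all genes were. Efnb1, an ephrin of the slit diaphragm, was at 0.33 in DM+SGLT2i versus C (SE 0.13, adjusted p 0.9997), and was 1 of 40 under an unadjusted p of 0.05 where 1.08% of all genes were.

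Without C replicate 2, 39 of these genes were tested and none was called, and 7 were higher and 3 lower in DM-22 versus C at an unadjusted p under 0.05. These 10 of 39 are near the background of 25.4% of all genes in that fit, so the count is no result about podocyte genes. Vegfa and Pdpn are given to show how far single values rest on C replicate 2. Vegfa, the endothelial growth factor that podocytes share with tubular cells, measured 64.8, 184 and 244 CPM in C replicates 2, 8 and 9, 74.0 and 88.7 CPM in DM-22, and 121 and 90.1 CPM in DM+SGLT2i. It was at -0.81 in DM-22 versus C with all 3 controls (SE 0.53, adjusted p 0.804) and at -1.38 without C replicate 2 (SE 0.22, adjusted p 0.0820). Pdpn, podoplanin of the podocyte surface, measured 23.1, 6.99 and 6.15 CPM in the controls, 10.9 and 12.3 CPM in DM-22, and 12.7 and 13.2 CPM in DM+SGLT2i, and was at 0.20 with all 3 controls (SE 0.53, adjusted p 0.937) and at 0.78 without C replicate 2 (SE 0.15, adjusted p 0.0870). For both genes C replicate 2 lay on the far side of the diabetic libraries from C replicates 8 and 9. C replicates 8 and 9 also stood apart in RNAs that stay in the nucleus, 4 of which summed to 460 and 630 CPM in these and to between 59.2 and 211 CPM in the other 5 libraries. The part of such RNAs in these values was not tested.

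Over the 7 libraries, the genes of the group followed each other to different degrees. Each was compared with the mean log2 level of the other 6, which is a description over 7 libraries that share the contrast within DM-22. Pearson's r was 0.94 for Podxl (Spearman's rho 0.93), 0.94 for Ptpro (0.82), 0.92 for Wt1 (0.75), 0.80 for Nphs1 (0.71), 0.77 for Synpo (0.82) and 0.74 for Plce1 (0.86). Kirrel stood apart with 0.20 (0.18). The closest pair was Nphs1 and Wt1 with an r of 0.97, followed by Podxl and Ptpro with 0.96, while Kirrel and Nphs1, whose proteins bind each other, had an r of 0.06. Without C replicate 9 and DM-22 replicate 1, the libraries farthest from the median, r was 0.54 to 0.74 for Synpo, Wt1, Podxl, Ptpro and Plce1, 0.04 for Nphs1 and -0.39 for Kirrel, so the relation of nephrin to the others rested on those libraries.

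Ratios within a library show the same without any scaling between libraries, and were chosen after the values were seen. Kirrel to Nphs1 was 0.999 by reads in C replicate 2, 0.380 in C replicate 8 and 0.666 in C replicate 9. The ratio was 0.984 and 0.234 in DM-22 replicates 1 and 2, and 0.672 and 0.743 in DM+SGLT2i. The DM-22 mice were thus near both ends of the range. Synpo to Podxl varied less, from 0.255 in C replicate 8 to 0.359 in DM-22 replicate 2.

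**Figure D4:**
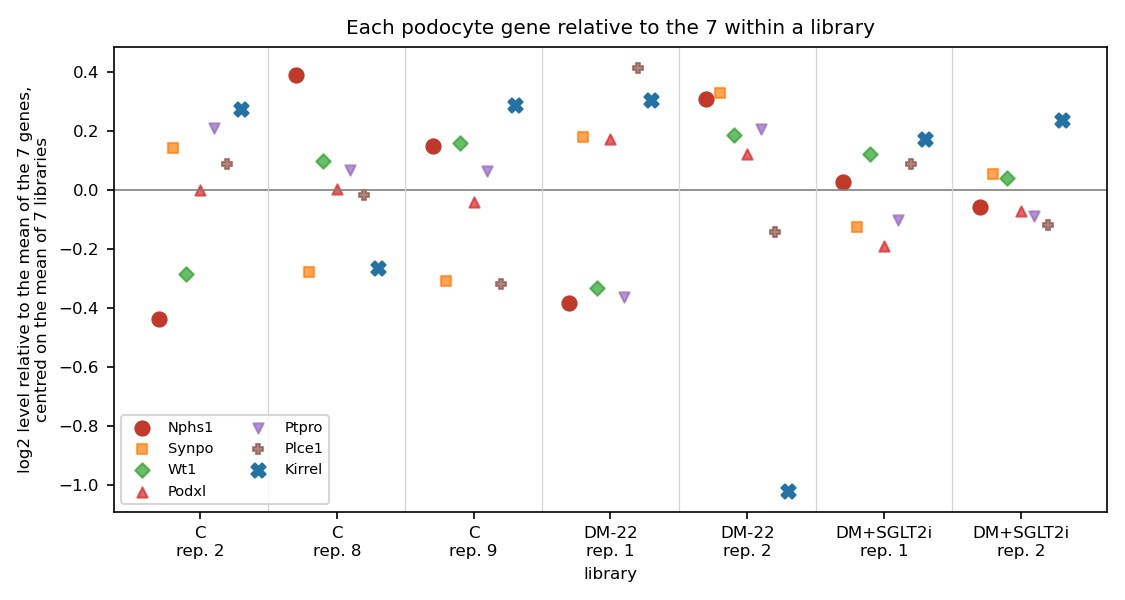
For each library (x axis) the points give the log2 level of a gene relative to the mean of the 7 genes in that library, centred on the mean over the 7 libraries (y axis). Kirrel lies far below the other points in DM-22 replicate 2 only and its ratio spans 1.32 log2 units, against 0.36 for Podxl.

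Outside the list, the 10 genes whose log2 level was most like the mean of the 7 podocyte genes over the 7 libraries were Sfrp5, Srgap1, Slc2a9, Sgsm1, Dcaf12l1, Cad, Enpep, Sema3e, Iqgap2 and Bmp6. Their Pearson's r ran from 0.964 to 0.997 and their Spearman's rho from 0.821 to 1. None was in the list of other podocyte genes. Sfrp5, a secreted Wnt antagonist, led with an r of 0.997 at 0.234 to 1.51 CPM. Enpep, the aminopeptidase of the proximal tubule brush border and podocyte, ranged from 115 to 234 CPM. In all, 23 genes (0.165%) had an r of at least 0.95, and 4 of the 10 were again among the first 10 without C replicate 2. Without C replicate 9 and DM-22 replicate 1, r of the 10 genes was between 0.67 and 0.99.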

How the data were processed

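RNA was taken from renal tissue of 7 mice, 1 library each, with poly(A) selection and a directional kit. For the deposited table, the processing notes of the authors name bcl2fastq, FastQC, Trim Galore, STAR, edgeR and mm10. The read counter, annotation release and strand setting are not given in the sources used here. The deposited values are log2 CPM, which the authors scaled with TMM factors and offset with a prior count (shared floor -4.66). CPM was recovered by removing that floor, and 100% of values were whole reads within 0.01 of a read. All 7 value columns were used (0 left out).

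limma 3.58.1 (R 4.3.3; lmFit, eBayes with trend) was fitted to log2(CPM + 0.5) for genes at or above 1 CPM in 2 or more libraries, 3 groups together, with Benjamini-Hochberg adjustment over all genes and a threshold of 0.05. The step was tested on simulated data. p-values are two-sided, and the labels give replicates only as separate libraries. Alternatives covered the pseudocount (0.1, 2), filter, scaling, prior, voom, a replicate block and each library left out. Gene positions came from GENCODE (GRCm38), promoters from RefSeq. The 7 genes, the lists and the rule for named genes (list members, the 10 most similar genes, Cdkn1a and Phlda3) were chosen with earlier results of these data known. Sex is male in the labels but not restricted in the study's methods. Levels per kb use the exon union of the gene.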

Additional observations from a re-analysis of the deposited data

Results flagged for a closer look

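Kirrel differed by 1.04 on the log2 scale between DM+SGLT2i and DM-22 (limma, SE 0.25, adjusted p 0.881). It stands out because both DM-22 mice were below and both DM+SGLT2i mice above the control mean of 18.1 CPM. The controls, however, spread from 13.4 to 22.03 CPM. C replicates 8 and 9 differed by 0.49 on the log2 scale, a gap that 5.02% of genes tested reached. Pla2r1, Angptl2 and Kirrel3 (0.360 and 0.393 CPM in DM-22) of the other podocyte list also had both DM-22 mice below all other libraries. Groups that do not overlap were common among all genes tested, counting either direction. This held for 20.1% of genes in DM-22 versus C and for 41.5% in DM+SGLT2i versus DM-22. The difference did not pass the adjusted threshold. The summed mesangial markers were also lower in both DM-22 mice (172 and 156 CPM) than in both DM+SGLT2i mice (302 and 226 CPM). So were the sums of the basement membrane list, the podocyte transcription factors and the RNAs that stay in the nucleus. The part of these lists was not tested.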

How the results depend on the processing

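No podocyte gene, of the 7 or of the longer list, was called in any comparison under any alternative. The replicate numbers of DM-22 and DM+SGLT2i are not known to pair mice (r = -0.04 across genes). With them as a replicate block, fitted to the 4 diabetic libraries only, 0 genes were called in DM+SGLT2i versus DM-22. In that limma fit 537 genes were higher and 159 lower at an unadjusted p under 0.05. The same 4 libraries without the block gave 557 and 146, and all 7 libraries without it gave 315 and 232. When 1 library was left out at a time, the genes called ranged from 0 to 2 in DM-22 versus C, from 0 to 17 in DM+SGLT2i versus C and from 0 to 28 in all diabetic versus C, the highest each time without C replicate 2. The median of the 7 genes ranged from -0.59 to 0.44 in DM-22 versus C and from -0.31 to 0.91 in DM+SGLT2i versus DM-22. Each low and high end came without 1 of the DM-22 libraries. Over the same omissions single genes also changed sign. In DM-22 versus C the range was -1.19 to 0.58 for Nphs1, -0.44 to 0.78 for Synpo, -1.09 to 0.50 for Wt1, -0.59 to 0.44 for Podxl, -1.25 to 0.39 for Ptpro and -0.27 to 0.24 for Plce1. In DM+SGLT2i versus DM-22 it was -0.39 to 1.38 for Nphs1, -0.43 to 0.80 for Synpo, -0.17 to 1.42 for Wt1, -0.31 to 0.71 for Podxl and -0.36 to 1.28 for Ptpro. In DM+SGLT2i versus C, Ptpro ranged from -0.067 to 0.15. In all diabetic versus C the range was -0.50 to 0.39 for Nphs1, -0.043 to 0.57 for Synpo, -0.38 to 0.42 for Wt1, -0.23 to 0.28 for Podxl, -0.61 to 0.21 for Ptpro and -0.020 to 0.30 for Plce1. Among the other alternatives, signs changed in 4 cases. Plce1 was 0.0056 in DM-22 versus C with median-of-ratios size factors, and in all diabetic versus C Wt1 was -0.016 and Podxl -0.0096 with library totals, and Wt1 was -0.023 with voom. Kirrel kept its sign in all 4 comparisons under all alternatives. The cause of the other sign changes was not tested. Each diabetic group held 2 mice, and the comparisons with C also depended on C replicate 2. In DM-22 versus C, 4.47% of genes had an unadjusted limma p under 0.05 with all 3 controls and 25.4% without that library. The parts of read depth, the spread between mice and C replicate 2 in what the fits could call were not tested.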
